A study of Mus musculus with 12 samples.

Results

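Transcripts of 10 myosin light chain genes were followed in mouse heart tissue from 4 groups. The genes were matched by symbol to the Ensembl identifiers of 2 tables of raw counts, and they are 10 of the 38293 genes in those tables. They comprise the ventricular chains Myl2 and Myl3, the atrial chains Myl7 and Myl4, the fast skeletal chain Myl1, the smooth muscle or non-muscle chains Myl9, Myl12a, Myl12b and Myl6, and the cardiac light chain kinase Mylk3. Per table, 9 of the 10 held enough counts for a test, and Myl7 did not.

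Every conventional myosin carries a regulatory and an essential light chain on the lever arm of each heavy chain. Phosphorylation of the regulatory chain by a myosin light chain kinase tunes contraction in the heart and starts it in smooth muscle, and myosin phosphatase reverses it. Atrium, ventricle, skeletal muscle, smooth muscle and non-muscle cells use different genes for both chains, and the set used by a cardiomyocyte changes during development.

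All mice are labelled C57Bl/6J, though the titles of the WT sham samples transpose its digits. The first table holds wild-type mice that had sham surgery (WT sham) or ischaemia-reperfusion (WT IR). The second holds wild-type littermates (Zeb2 WT IR) and Zeb2 transgenic mice (Zeb2 cTg IR), and both of those groups had IR. Hearts were taken 14 days after IR, which was a ligation of the left anterior descending artery for 1 h in mice of 8 to 9 weeks, and each group has 3 mice. The study's methods give males in one place and both sexes in another. In Zeb2 cTg mice a Cre driven by the Myh6 promoter, which is active in cardiomyocytes, removes a stop cassette before a Zeb2 cDNA on both Rosa26 alleles. The littermates' own alleles at these loci are given no further detail in the labels. The submitters' sample labels say left ventricle, their design text says infarct with border zone and the study's methods say remote zone, so the sampled area is uncertain. The library kit also differs, a stranded mRNA kit in the labels and a stranded total RNA kit in the methods. Each table was normalized on its own, so levels in one table are set beside those of the other as values only.

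Libraries held 20215781 to 36816818 counts in total, of which 60.57% to 73.46% came from the mitochondrial genome. Zeb2, the gene the transgene carries, stood at 54.7, 57.8 and 67 counts per 1000000 (CPM) in Zeb2 WT IR and at 55.5, 56.9 and 58.7 CPM in libraries with the label Zeb2 cTg IR (Zeb2 cTg-labelled libraries), a log2 difference of -0.07 with a standard error (SE) of 0.12 (adjusted p 0.75, edgeR). The counts therefore do not show the higher Zeb2 mRNA that the study reports by qPCR in Zeb2 cTg hearts, and the reason was not tested. They leave that label unchecked, and directions in the second table rest on it. The summed CPM of 22 cardiomyocyte markers was 44696 to 56221 in WT IR against 56183 to 61657 in WT sham, and 62698 to 68228 in the Zeb2 cTg-labelled libraries against 55898 to 62358 in Zeb2 WT IR. Ttn alone held most of each sum, with means of 39258 CPM in WT sham, 33774 in WT IR, 42227 in Zeb2 WT IR and 46512 in the Zeb2 cTg-labelled libraries. It passed the test in neither comparison (adjusted p 0.521 and 0.642, edgeR). Scaling to these markers, an alternative setting below, uses the same sum of counts and so rests mostly on Ttn. In this bulk tissue, fewer cells of a type and less RNA per cell cannot be told apart.

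Ventricular chains held nearly the whole light chain pool in every library. Levels were compared between genes as CPM per kilobase (kb) of the principal transcript. In WT sham, Myl2, the ventricular regulatory chain, stood at 2913 ± 26.8 CPM per kb (SD, n = 3) and Myl3, the ventricular essential chain, at 1358 ± 34.4. Mylk3 (70.9 ± 1.74) and Myl12a (70.8 ± 3.84) came next with overlapping libraries, followed by Myl6 at 15.2 ± 0.0604. Myl9 (6.78 ± 1.39) and Myl1 (6.54 ± 0.769) also overlapped. Myl12b had a mean just under theirs, 5.58 ± 0.115, below every Myl1 library but overlapping those of Myl9. The atrial chains were lowest, Myl4 at 0.638 ± 0.199 and Myl7 at 0.147 ± 0.0825 CPM per kb. Over the combined length of all exons in place of the principal transcript, Myl6 fell below Myl9 and Myl12b in WT sham, at 3.17 against 6.58 and 4.31 CPM per kb, so the place of Myl6 in the order rests on the length used. With that length Mylk3 lay above Myl12a without overlap in all 4 groups (61.2 against 40.8 CPM per kb in WT sham, 50.9 against 42 in WT IR and 51.6 against 37.2 in Zeb2 WT IR), Myl4 fell below Myl7 in WT sham with overlapping libraries, and Myl9 overlapped Myl12b in Zeb2 WT IR.

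The same order held at the top in the other groups, where Myl2 and Myl3 came first and second. In WT IR, per kb of the principal transcript, Myl12a (72.8 ± 1.85 CPM per kb) and Mylk3 (58.9 ± 11) overlapped, and so did the neighbours Myl12b (8.37 ± 1.9), Myl9 (8.22 ± 0.161) and Myl1 (7.56 ± 2.28). In Zeb2 WT IR, Myl12a and Mylk3 again overlapped, and Myl9 (3.87 ± 1.03) lay below Myl12b (5.91 ± 0.918). In the Zeb2 cTg-labelled libraries, Mylk3 (107 ± 2.6) lay above Myl12a (93.6 ± 5.79) without overlap, and Myl6 (24.6 ± 5.21), Myl9 (20 ± 5.61) and Myl1 (17.1 ± 3.13) overlapped as neighbours. Myl9 thus moved from below Myl12b to above it between the groups of the second table. Over the combined length of all exons, Myl9 of the Zeb2 cTg-labelled libraries (19.4 CPM per kb) lay above Myl1 (6.61) and Myl6 (5.14) without overlap.

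**Figure D1:**
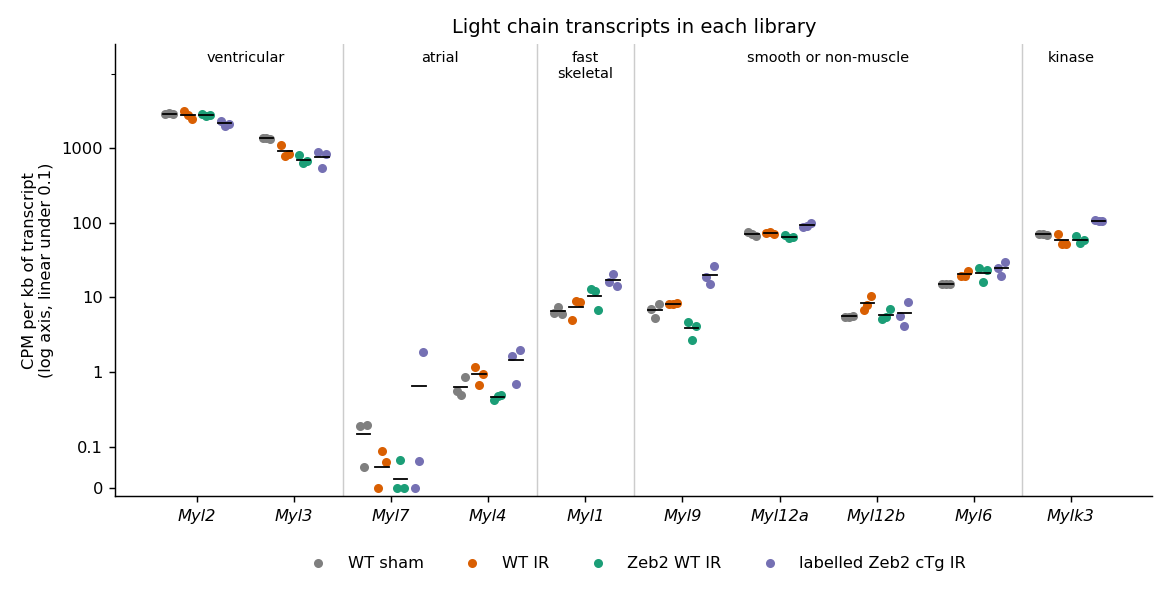
Level of each light chain gene in every library, as CPM per kb of the principal transcript on a log axis that is linear under 0.1. Points are libraries, 3 per group, and bars are group means. Myl2 and Myl3 lie far above the rest, Myl9 and Mylk3 of the Zeb2 cTg-labelled libraries lie above those of Zeb2 WT IR, and the mean of Myl7 in that group comes from 1 library.

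RefSeq upstream sequence was searched for the CArG box, the site of serum response factor that many muscle genes carry, and for 3 other motifs. All 10 genes matched RefSeq, with 13 start sites, and 250 bases before each were read on both strands. The CArG box stood before 4 of the 13 starts, those of Myl3, Myl7 and Myl9 and an internal start of Myl6, against 1.47% of all 32851 windows. CACCTG, the E-box core that ZEB2 binds, stood in 1 of the 13, before Myl3, against 17.2% of all windows. TATAAA stood in 2, before Myl1 and Myl2, against 12.4%, and the MEF2 site in 0 against 2.92%. Both RefSeq starts of Myl2 lie upstream of the gene as GENCODE places it, so those windows do not adjoin that interval. The Myl3 window lies inside the GENCODE interval of its gene, as do both Mylk3 windows and those of some other genes. Such a window is therefore not sequence before that interval. A match is a description of the letters and not a bound site. The windows of 1 ventricular, 1 atrial and 1 smooth muscle chain are shown because they carry a CArG box and belong to different classes. Each runs 5′ to 3′ on the gene's strand in GRCm38.p6, from 250 to 31 bases before the RefSeq start, with CArG boxes and the reverse complement of CACCTG in capitals. Myl3 is at chr9:110763428-110763647 on the plus strand, Myl7 at chr11:5898813-5899032 on the minus strand and Myl9 at chr2:156775214-156775433 on the plus strand.
Myl3: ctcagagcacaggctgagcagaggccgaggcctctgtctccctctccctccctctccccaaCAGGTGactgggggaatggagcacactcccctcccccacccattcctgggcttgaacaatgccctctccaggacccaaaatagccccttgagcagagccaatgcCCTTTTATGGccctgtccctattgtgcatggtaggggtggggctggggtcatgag
Myl7: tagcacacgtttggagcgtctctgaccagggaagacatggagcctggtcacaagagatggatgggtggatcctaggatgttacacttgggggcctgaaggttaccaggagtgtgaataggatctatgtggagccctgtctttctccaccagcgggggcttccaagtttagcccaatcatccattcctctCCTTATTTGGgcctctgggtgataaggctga
Myl9: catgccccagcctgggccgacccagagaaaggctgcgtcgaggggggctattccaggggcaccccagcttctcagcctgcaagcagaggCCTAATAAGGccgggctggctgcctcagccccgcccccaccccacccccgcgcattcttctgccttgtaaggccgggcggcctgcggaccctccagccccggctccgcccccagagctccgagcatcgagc

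After IR in wild-type mice, the ventricular essential chain fell and a pair of smooth muscle or non-muscle chains rose, while the ventricular regulatory chain did not pass the test. Of the 9 genes tested, Myl3 was lower and Myl6 and Myl12b were higher at an adjusted p under 0.05 (edgeR's quasi-likelihood test, Benjamini-Hochberg over all 13756 genes tested). That is 3 of 9, against 20.8% of all genes called, with 11% called higher and 9.74% called lower. The libraries of the 2 groups did not overlap for the same 3 genes, against 39.8% of all genes. The median log2 fold change of the 9 was 0.20, against 0.01 over all genes. The light chain count rests on single libraries, and so do the calls over all genes, 2859 with all libraries. Without WT sham replicate 2 the light chain count was 0 (3 genes at an unadjusted p under 0.05, edgeR), with 421 calls over all genes. It was 1 without WT sham replicate 1, WT sham replicate 3 or WT IR replicate 2, with 1277, 1435 and 919 calls over all genes. It was 5 without WT IR replicate 1, when Myl1 and Mylk3 were added, with 4980 calls over all genes.

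Myl3 (ENSMUSG00000059741, chr9:110741861-110769798, plus strand) gave 1292, 1291 and 1236 CPM in WT sham and 1052, 746 and 787 CPM in WT IR. Every WT IR library lay below every WT sham library, and WT IR replicate 1 was the closest to them. This is a log2 fold change of -0.56 (SE 0.14), a level 1.48-fold lower, with an adjusted p of 0.0237 (edgeR). Leaving out WT sham replicate 1, 2 or 3 or WT IR replicate 2 raised the adjusted p to between 0.0625 and 0.111 with the direction kept. Of the 22 cardiomyocyte markers 20 had a negative log2 fold change in the same comparison. Of these 7 were called lower, against 9.74% of all genes, among them Ryr2 (-0.58), Ckm (-0.68), Cox6a2 (-0.56) and Tnni3 (-0.52). Size factors from those markers alone kept the call of Myl3 at a smaller log2 fold change of -0.33.

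Myl2 (ENSMUSG00000013936, chr5:122100951-122113472, plus strand) stood at 2564, 2611 and 2595 CPM in WT sham and at 2789, 2467 and 2207 CPM in WT IR. The WT sham libraries agreed within a coefficient of variation of 0.919%, and the WT IR libraries lay on both sides of them. The log2 fold change was -0.06 (SE 0.13, adjusted p 0.788, edgeR), and it took the other sign, 0.18, with size factors from cardiomyocyte markers.

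The balance of the 2 ventricular chains was read within each library, where scaling between libraries plays no part. This ratio was added after the values were seen. Myl2 per kb was 2.09, 2.13 and 2.21 times Myl3 per kb in WT sham and 2.79, 3.49 and 2.95 times in WT IR. No library of one group reached the other, and the mean log2 ratio was 0.51 higher after IR (1.43-fold; exact two-sided permutation p 0.1, adjusted over 14 ratio comparisons 0.233). With 3 libraries against 3 the smallest p that test can give is 0.1, so none of the ratio comparisons could pass the threshold.

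Myl6 (ENSMUSG00000090841, chr10:128490860-128494145, minus strand), the essential chain of smooth muscle and non-muscle myosin, stood at 10.1 CPM in each of the 3 WT sham libraries. It stood at 12.9, 13 and 15 CPM in WT IR, all above WT sham. Its log2 fold change was 0.43 (SE 0.09, 1.34-fold, adjusted p 0.0129, edgeR), and the call was lost without WT sham replicate 2 (adjusted p 0.07). Of the windows of 75 bases in its principal transcript, 38.6% also occur in 5 other annotated genes, Gm10080, Gm11836, Gm5526, Gm5915 and Gm8894, so its counts are uncertain to that extent.

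Myl12b (ENSMUSG00000034868, chr17:70973133-70990890, minus strand), a non-muscle regulatory chain, gave 11.9, 11.7 and 12.2 CPM in WT sham and 14.5, 16.9 and 22.4 CPM in WT IR. The WT sham libraries lay close together, and the WT IR libraries were all higher and more spread. This gave a log2 fold change of 0.58 (SE 0.14, 1.5-fold, adjusted p 0.022, edgeR). Leaving out any WT sham library or WT IR replicate 2 raised the adjusted p to between 0.0624 and 0.103.

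The markers of other cells moved in the same comparison. Of 9 fibroblast markers, 8 were called higher, against 11% of all genes. Their summed CPM was 1919 to 4822 in WT IR against 531 to 977 in WT sham, and none of the 9 was at 0 in a library. Of 8 macrophage markers, 6 were called higher, against the same 11%, with sums of 97.6 to 186 against 72.5 to 82.6 CPM. Of 8 smooth muscle markers, 7 were tested. Tagln was called higher, and Acta2, Smtn and Synpo2 were called lower, against 9.74% of all genes called lower. The list summed to 110 to 134 against 149 to 169 CPM, with Actg2 at 0 in at least 1 library. None of 7 endothelial markers passed the test (edgeR; 2 at an unadjusted p under 0.05, 0 with DESeq2). The part of these markers in the levels of Myl6 and Myl12b was not tested.

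The remaining smooth muscle or non-muscle chains did not pass the test after IR. Myl9 (ENSMUSG00000067818), the regulatory chain most abundant in smooth muscle, stood at 7.79, 6.01 and 9.14 CPM in WT sham and at 9.12, 9.21 and 9.47 CPM in WT IR, which overlap by 1 library. Its log2 fold change was 0.30 (SE 0.14, adjusted p 0.158, edgeR). Myl12a (ENSMUSG00000024048), which lies beside Myl12b on chromosome 17, stood at 144, 137 and 130 CPM in WT sham and at 141, 144 and 137 CPM in WT IR. The 2 ranges of Myl12a nearly coincide, and its log2 fold change was 0.04 (SE 0.08, adjusted p 0.752, edgeR). The principal transcripts of Myl12a and Myl12b share 3.44% and 3.53% of their windows of 75 bases with other genes, each other included, and 26.9% and 32.2% when a readthrough gene annotated across both is counted.

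The atrial chains stayed the lowest of the 10 per kb after IR. Myl7 (ENSMUSG00000020469), the atrial regulatory chain, gave 3, 1 and 2 counts in WT sham and 0, 2 and 1 counts in WT IR. A count of 0 in WT IR replicate 1 allows up to 0.0937 CPM, counting error only, and a difference was not detectable at this depth. Myl4 (ENSMUSG00000061086), the atrial essential chain, gave 14, 15 and 14 counts in WT sham and 35, 24 and 24 counts in WT IR. As levels these are 0.53, 0.46 and 0.815 CPM against 1.09, 0.635 and 0.895 CPM, which overlap, with a log2 fold change of 0.59 (SE 0.32, adjusted p 0.209, edgeR).

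Set against Myl3 of the same library, Myl4 was higher in all 3 WT IR libraries than in any WT sham library. The mean log2 ratio of Myl4 to Myl3 was 1.11 higher (exact permutation p 0.1, adjusted 0.233), with Myl3 itself lower. For Myl6 to Myl3 the difference was 1.01 (exact permutation p 0.1, adjusted 0.233), again with no overlap. Myl1 to Myl3 differed by 0.74 (exact permutation p 0.4, adjusted 0.467) and Myl7 to Myl2 by -1.25 (exact permutation p 0.3, adjusted 0.382), both with overlapping libraries. The Myl7 value rests on few counts, being -0.51 without WT IR replicate 1 and -0.54 with 5 added to each count. For Myl9 to Myl2 the difference was 0.36 (exact permutation p 0.2, adjusted 0.311).

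Myl1 (ENSMUSG00000061816), the essential chain of fast skeletal fibres, stood at 5.03, 5.95 and 4.77 CPM in WT sham and at 3.97, 7.27 and 6.97 CPM in WT IR. WT IR replicate 1 lay below all WT sham libraries and the other 2 above them, and the log2 fold change was 0.20 (SE 0.21, adjusted p 0.539, edgeR). Without WT IR replicate 1 it was 0.42 with an adjusted p of 0.0214. Other genes of fast skeletal fibres were read beside it. The 11 skeletal muscle markers summed to 4.66 to 8.81 CPM in WT sham and 6.75 to 9.14 CPM in WT IR, and Tnnc2, Myh1, Myh2, Myh4, Actn3 and Pvalb were at 0 in at least 1 library. Mylpf, the regulatory chain of the same fibres, held 5 to 13 counts per library in these groups. Of the windows of the Myl1 transcript, 22.9% also occur in Mylf-ps.

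Mylk3 (ENSMUSG00000031698, chr8:85324303-85386345, minus strand) phosphorylates the regulatory chain of the ventricle. It stood at 266, 266 and 255 CPM in WT sham and at 265, 194 and 194 CPM in WT IR. WT IR replicate 1 sat among the WT sham libraries and the other 2 well below them. The log2 fold change was -0.27 (SE 0.13, adjusted p 0.157, edgeR), and without WT IR replicate 1 it was -0.43 with an adjusted p of 0.00119.

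The order of the WT IR libraries was shared by several of these genes. WT IR replicate 1 had the highest Myl2, Myl3 and Mylk3 of its group and the lowest Myl1, Myl6 and Myl12b. The same library had the lowest fibroblast sum of the group, 1919 against 3115 and 4822 CPM, and the highest cardiomyocyte sum, 56221 against 48623 and 44696 CPM. How far the sampled area differed between these libraries was not tested.

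**Figure D2:**
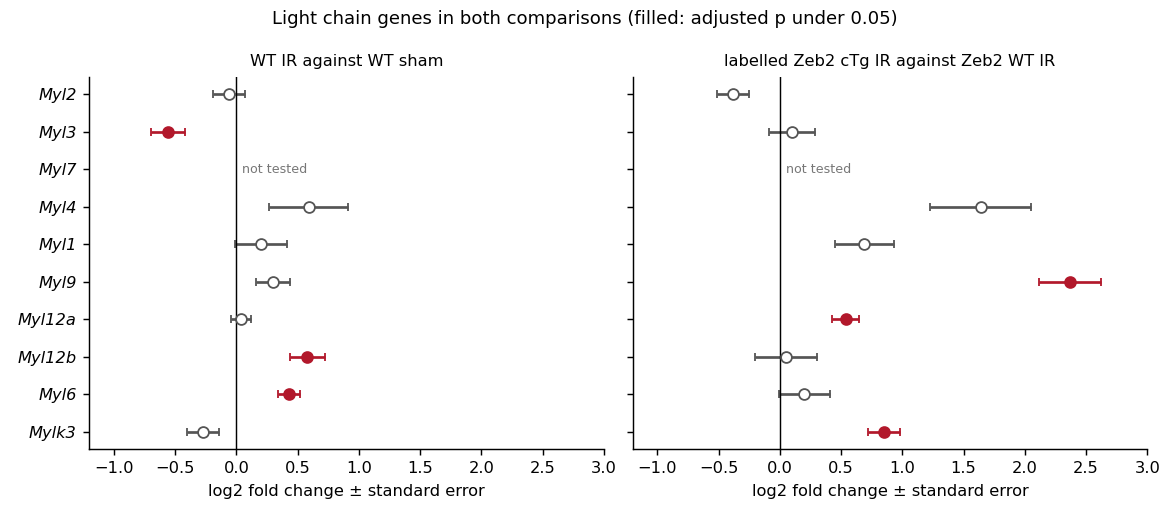
Log2 fold change of each light chain gene with its standard error, from edgeR's quasi-likelihood fit of all genes, for WT IR against WT sham (left) and the Zeb2 cTg-labelled libraries against Zeb2 WT IR (right). Filled points have an adjusted p under 0.05, which are Myl3, Myl6 and Myl12b on the left and Myl9, Myl12a and Mylk3 on the right.

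In the Zeb2 cTg-labelled libraries, a smooth muscle regulatory chain, a non-muscle regulatory chain and the cardiac kinase rose. Of 9 genes tested, Myl9, Myl12a and Mylk3 were higher at an adjusted p under 0.05 and none was lower (edgeR; Myl2 lower at an unadjusted p under 0.05 and called lower by DESeq2). That is 3 of 9, against 3.64% of all 13018 genes tested, with 2.14% called higher and 1.51% called lower. Groups did not overlap for 6 of the 9, namely Myl1, Myl2, Myl4, Myl9, Myl12a and Mylk3, against 26.2% of all genes. The median log2 fold change of the 9 was 0.54, against 0.01 over all genes. The light chain count was 5 with DESeq2, which called 1027 of all genes, against 474 in the main fit. On leaving out a library it was between 1 and 4. It was 1 (Myl9) without Zeb2 WT IR replicate 3, with 98 calls over all genes. Without Zeb2 cTg IR replicate 2 it was 4, with 2419 calls over all genes.

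Myl9 (chr2:156775420-156781658, plus strand) stood at 5.32, 3.08 and 4.7 CPM in Zeb2 WT IR and at 21.2, 17 and 29.5 CPM in the Zeb2 cTg-labelled libraries. The lowest of the latter was more than 3 times the highest of the former. The log2 fold change was 2.37 (SE 0.25, 5.16-fold) with an adjusted p of 0.00204 (edgeR). The call held in each of the 6 fits without a library and in each of 8 other settings, with log2 values from 2.0 to 2.53. In the other table Myl9 stood at 6.01 to 9.47 CPM, above the 3 Zeb2 WT IR libraries and below the 3 Zeb2 cTg-labelled libraries, as values from separately normalized tables.

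Within libraries, Myl9 to Myl2 was 2.75 higher on the log2 scale, or 6.72-fold, in the Zeb2 cTg-labelled libraries (exact permutation p 0.1, adjusted 0.233), with no overlap. Its share of the transcripts of Myl2, Myl7, Myl9, Myl12a and Myl12b, the regulatory chains among the 10 genes, per kb, was 0.134% ± 0.0326 in Zeb2 WT IR and 0.879% ± 0.238 in the Zeb2 cTg-labelled libraries (SD, n = 3). Even so, Myl2 kept 94% to 95.4% of that pool.

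Smooth muscle markers were read beside Myl9. Of 8 smooth muscle markers, 6 were tested and only Acta2, smooth muscle actin, passed the test, against 3.64% of all genes. Acta2 stood at 20.2, 13.8 and 16.7 CPM in Zeb2 WT IR against 57.2, 39.8 and 64.5 CPM in the Zeb2 cTg-labelled libraries (log2 1.67, SE 0.20, adjusted p 0.00463, edgeR). Myh11, the smooth muscle heavy chain, stood at 14.7, 12.4 and 11.3 CPM against 15.1, 10.8 and 18.1 CPM (log2 0.20, SE 0.19, adjusted p 0.545). Tagln, an actin-binding protein of smooth muscle, stood at 5.87, 4.65 and 5.1 CPM against 5.15, 3.78 and 6.85 CPM (log2 0.02, SE 0.22, adjusted p 0.965). Smtn stood at 22.5, 10.4 and 15.5 CPM against 28.4, 14.9 and 32.3 CPM (log2 0.64, SE 0.32, adjusted p 0.25, edgeR). Synpo2 was lower without overlap (log2 -0.32, SE 0.13, adjusted p 0.16, edgeR). Of the 6 tested, 5 had a positive log2 fold change and 1 a negative one. The sum of the list was 94.4 to 119 CPM against 110 to 165 CPM, and none of the 8 was at 0 in a library. Fibroblast markers moved the other way, with 3 of 9 called lower (Col3a1, Col1a2 and Lum), against 1.51% of all genes. They summed to 537 to 663 CPM in the Zeb2 cTg-labelled libraries against 918 to 2100 CPM in Zeb2 WT IR. The part of smooth muscle content in the level of Myl9 was not tested.

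Myl12a (chr17:70993656-71002878, minus strand), a regulatory chain of non-muscle myosin, stood at 131, 120 and 124 CPM in Zeb2 WT IR and at 173, 177 and 194 CPM in the Zeb2 cTg-labelled libraries. No library of one group reached the other. The log2 fold change was 0.54 (SE 0.11, 1.45-fold, adjusted p 0.0347, edgeR). The call was kept in 1 of 6 fits without a library, the one without Zeb2 cTg IR replicate 2, and the other 5 gave adjusted p between 0.0694 and 0.168. It was also lost with size factors from cardiomyocyte markers (0.37, adjusted p 0.0902). Exons of Myl12a share 207 bases with exons of genes on the opposite strand, Myom1 among them, and Myom1 had a log2 fold change of 0.19 (SE 0.13, adjusted p 0.38, edgeR).

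Its neighbour Myl12b stood at 11.2, 11.9 and 14.9 CPM in Zeb2 WT IR and at 11.9, 8.82 and 18.4 CPM in the Zeb2 cTg-labelled libraries. The latter spread around the former, with a log2 fold change of 0.05 (SE 0.25, adjusted p 0.919, edgeR), which turned to -0.10 with size factors from cardiomyocyte markers and with GC correction. Whether Myl12a and Myl12b differed in response was not tested. Myl6 stood at 16.4, 10.6 and 15.8 CPM against 16.3, 13 and 19.9 CPM, which overlap (log2 0.20, SE 0.21, adjusted p 0.568, edgeR).

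Mylk3 stood at 250, 196 and 216 CPM in Zeb2 WT IR and at 407, 397 and 388 CPM in the Zeb2 cTg-labelled libraries. The latter agreed within a coefficient of variation of 2.42%, and all lay far above the former. Its log2 fold change was 0.85 (SE 0.13, 1.8-fold, adjusted p 0.0117, edgeR), and the call was lost only without Zeb2 WT IR replicate 3 (0.83, adjusted p 0.0673) among the 6 fits without a library and 8 other settings. Of 22 cardiomyocyte markers, 2 were also called higher, Mybpc3 (log2 0.84) and Tnnt2 (log2 0.68), against 2.14% of all genes. Of the 22, 17 had a positive log2 fold change and 5 a negative one. At an unadjusted p under 0.05 (edgeR) 7 were higher, and DESeq2 called 5. With size factors from those markers Mylk3 kept its call at 0.68.

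Mylk4, another kinase of the family, was set beside Mylk3 after its values were seen. It stood at 40.6, 99.8 and 29.4 CPM in Zeb2 WT IR and at 22.2, 23.3 and 24.8 CPM in the Zeb2 cTg-labelled libraries. Groups did not overlap, though Zeb2 WT IR replicate 2 stood apart, and the test was not passed (log2 -1.27, SE 0.38, adjusted p 0.0891, edgeR). The mean log2 ratio of Mylk3 to Mylk4 was 1.92 higher in the Zeb2 cTg-labelled libraries (exact permutation p 0.1, adjusted 0.233), and between 1.33 and 2.28 when 1 library was left out. After IR in wild-type mice the ratio differed by 0.18 (exact permutation p 0.6, adjusted 0.6).

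The ventricular chains themselves did not pass the test between Zeb2 WT IR and the Zeb2 cTg-labelled libraries. Myl2 stood at 2549, 2424 and 2492 CPM against 2089, 1760 and 1893 CPM. All Zeb2 cTg-labelled libraries lay below all Zeb2 WT IR libraries, with a log2 fold change of -0.38 (SE 0.13, adjusted p 0.124, edgeR). The adjusted p was 0.0342 with DESeq2, 0.0305 with GC correction and 0.045 with size factors from cardiomyocyte markers, under which Myl2 was at -0.54. Myl3 stood at 756, 590 and 624 CPM against 831, 506 and 780 CPM, which overlap (log2 0.10, SE 0.19, adjusted p 0.769, edgeR), and its sign turned under some settings. Myl2 per kb was 3.56, 4.33 and 4.21 times Myl3 per kb in Zeb2 WT IR and 2.65, 3.66 and 2.56 times in the Zeb2 cTg-labelled libraries, with Zeb2 cTg IR replicate 2 inside the range of Zeb2 WT IR. The difference of mean log2 ratios was -0.46 (exact permutation p 0.2, adjusted 0.311).

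**Figure D3:**
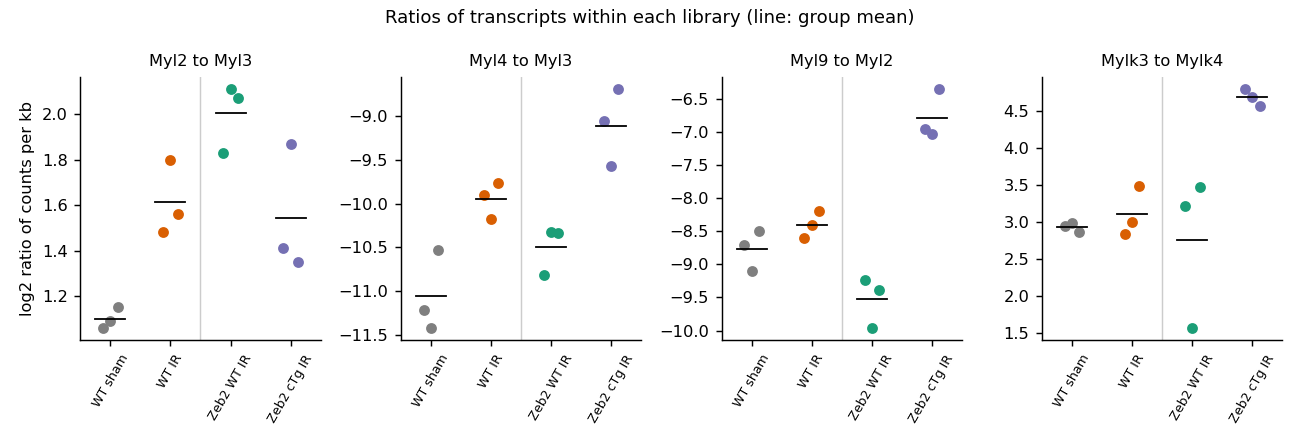
Log2 ratios of 4 pairs of transcripts within each library, from counts per kb of the principal transcript, with points for libraries and lines for group means. Myl2 to Myl3 was higher in all WT IR libraries than in WT sham, and Myl9 to Myl2 and Mylk3 to Mylk4 were higher in all Zeb2 cTg-labelled libraries than in Zeb2 WT IR. The grey line divides the separately normalized tables.

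Atrial chains were still rare in the second table. Myl4 gave 11, 11 and 14 counts in Zeb2 WT IR and 37, 17 and 67 counts in the Zeb2 cTg-labelled libraries, or 0.403, 0.445 and 0.466 CPM against 1.55, 0.649 and 1.88 CPM. The groups did not overlap, and the log2 fold change of 1.64 (SE 0.41, adjusted p 0.0606, edgeR) missed the threshold that it passed with DESeq2 (adjusted p 0.0323) and without the filter on low counts (0.00525). Myl4 was also called with the replicate block and, among fits without a library, only without Zeb2 cTg IR replicate 2. Myl4 to Myl3 was 1.38 higher on the log2 scale with no overlap (exact permutation p 0.1, adjusted 0.233). Myl7 gave 0, 1 and 0 counts in Zeb2 WT IR and 0, 1 and 39 counts in the Zeb2 cTg-labelled libraries. All but 1 count of that group came from replicate 3, the library with the lowest mitochondrial share (60.57%), and the counts of 0 allow up to 0.11, 0.0999 and 0.126 CPM. Myl7 to Myl2 differed by 2.44 on the log2 scale (exact permutation p 0.2, adjusted 0.311) but by 0.76 without Zeb2 cTg IR replicate 3 and by 1.38 with 5 added to each count.

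Other atrial genes were read beside these chains. Sln, an atrial regulator of the calcium pump, held 0 counts in every library but WT IR replicate 3 (1 count) and Zeb2 cTg IR replicate 3 (7 counts). Bmp10, an atrial growth factor, held 0 counts in all Zeb2 WT IR libraries and 1, 6 and 4 counts in the Zeb2 cTg-labelled libraries. Nppa, which the stressed ventricle also makes, was higher in WT IR (log2 3.57, SE 0.34, adjusted p 0.00156) and in the Zeb2 cTg-labelled libraries (log2 2.43, SE 0.42, adjusted p 0.0182, edgeR). Of the 12 atrial markers 10 were tested in each table. Among WT libraries 3 were called higher and 2 lower, against 11% and 9.74% of all genes. Their sums were 792 to 1185 CPM against 434 to 523 CPM, though 6 of the 10 had a negative log2 fold change and the median was -0.25. Among Zeb2 libraries 1, Nppa, was called higher, against 2.14% of all genes, with sums of 800 to 1081 CPM against 546 to 697 CPM. In those sums the mean of Nppa went from 38.7 to 208 CPM and that of Pam from 391 to 500 CPM. Of the 10 tested among Zeb2 libraries, 7 had a positive log2 fold change and 3 a negative one. Dkk3, an atrial marker higher after IR (log2 3.85), stood the other way there (log2 -1.74, SE 0.43, adjusted p 0.0563, edgeR), without overlap, and DESeq2 called it. DESeq2 also called Nppa, Tbx5 (log2 0.7, SE 0.17, adjusted p 0.056, edgeR) and Clu (log2 0.62, SE 0.16, adjusted p 0.0586, edgeR), all higher without overlap. The part of atrial tissue in the counts of Myl4 and Myl7 was not tested.

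Myl1 stood at 10.4, 9.79 and 5.4 CPM in Zeb2 WT IR and at 13, 16.5 and 11.6 CPM in the Zeb2 cTg-labelled libraries. The groups did not overlap, and the test was not passed (log2 0.69, SE 0.24, adjusted p 0.131, edgeR). Myl1 passed in 3 of 8 other edgeR or DESeq2 settings and in 0 of 6 fits without a library. Its adjusted p (edgeR) was 0.0222 without the filter on low counts, 0.0238 with the replicate block and 0.0463 with block and GC correction. The 11 skeletal muscle markers summed to 4.45 to 5.17 CPM and 3.51 to 7.22 CPM, and 7 of them were at 0 in at least 1 library. Within that sum, Mybpc2 was lower without overlap (log2 -0.57, SE 0.23, adjusted p 0.167, edgeR), while Mylpf went from 1, 0 and 5 counts to 15, 4 and 20 and Atp2a1 from a mean of 0.153 to 1.08 CPM. Both fell below edgeR's filter, their groups overlapped, and DESeq2 called Atp2a1. Myl1 to Myl3 differed by 0.65 (exact permutation p 0.3, adjusted 0.382) and Myl6 to Myl3 by 0.13 (exact permutation p 0.5, adjusted 0.538).

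**Figure D4:**
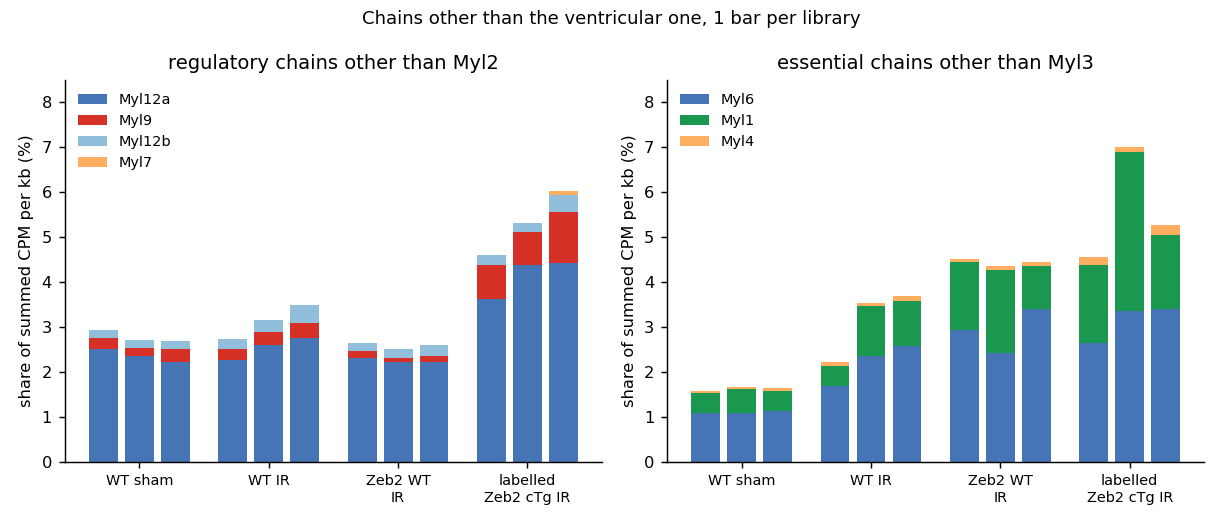
Share of the summed CPM per kb held by chains other than the ventricular one, 1 bar per library, for regulatory chains (left, without Myl2) and essential chains (right, without Myl3). The remainder up to 100% is Myl2 or Myl3. Regulatory bars are highest in the Zeb2 cTg-labelled libraries, where Myl12a and Myl9 are larger, and essential bars are lowest in WT sham.

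Read as pools, the ventricular chains held most transcripts in every library. Myl2 held 97.1% to 97.3% of the transcripts of these 5 regulatory chains per kb in WT sham, 96.5% to 97.3% in WT IR, 97.4% to 97.5% in Zeb2 WT IR and 94% to 95.4% in the Zeb2 cTg-labelled libraries. Only the last group stood wholly below its comparison group, and Myl12a held most of what Myl2 did not, 4.14% ± 0.452 against 2.25% ± 0.0483 in Zeb2 WT IR. Myl3 held 98.3% to 98.4% of those of the essential chains Myl1, Myl3, Myl4 and Myl6 in WT sham, 96.3% to 97.8% in WT IR, 95.5% to 95.7% in Zeb2 WT IR and 93% to 95.4% in the Zeb2 cTg-labelled libraries. The share of Myl6 was 1.1% ± 0.0248 in WT sham and 2.21% ± 0.468 in WT IR. These shares are a description, and they move with the length assigned to each gene.

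The genes that phosphorylate and dephosphorylate light chains were read as a list of 19 with the remaining light chains. Of the 19, 15 were tested for WT IR against WT sham, and 1 was called higher and 2 lower after IR, a share close to the 20.8% of all genes called. Calm2, a calmodulin gene, was higher (log2 0.43, SE 0.12, adjusted p 0.0345). Dapk3, a kinase of the regulatory chain, was lower (log2 -0.63, SE 0.16, adjusted p 0.0255), and so was Ppp1r14a, an inhibitor of myosin phosphatase (log2 -1.02, SE 0.27, adjusted p 0.0271, edgeR). DESeq2 called only Calm2 of the 3. All 3 calls were lost without WT sham replicate 1, 2 or 3 or WT IR replicate 2, with adjusted p between 0.06 and 0.161, and those of Calm2 and Ppp1r14a also without WT IR replicate 3. With GC correction none of the 3 was called, and Dapk3 was at -0.21 (adjusted p 0.354). In the second table none of 14 passed edgeR's test, 6 had an unadjusted p under 0.05, and DESeq2 called Ppp1r12c, Calm3 and Dapk3. Mylk, the smooth muscle kinase, stood at 11 ± 0.899 CPM in WT sham, 10.6 ± 1.45 in WT IR, 12.1 ± 2.42 in Zeb2 WT IR and 12.2 ± 1.08 in the Zeb2 cTg-labelled libraries.

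Of 7 heavy chain genes, all tested, 3 were called after IR in wild-type mice, against 20.8% of all genes, and DESeq2 called these and also Myh6 and Myh7b. Myh6, the main heavy chain of the adult mouse ventricle, stood at 8305 ± 708 CPM in WT sham and 5877 ± 1189 CPM in WT IR without overlap (log2 -0.50, SE 0.19, adjusted p 0.086, edgeR). Myh7, the slow heavy chain of the embryonic ventricle, stood at 18.9, 10.9 and 10.7 CPM in WT sham and at 186, 166 and 308 CPM in WT IR (log2 4.02, SE 0.29, 16.2-fold, adjusted p 0.000462, edgeR). Myh10, a non-muscle heavy chain, was higher (log2 0.50, SE 0.15, adjusted p 0.0384) and Myh14, another, lower (log2 -0.68, SE 0.17, adjusted p 0.0233). Without WT sham replicate 1, 2 or 3 or WT IR replicate 2 both of these calls were lost, and that of Myh10 also without WT IR replicate 3, while Myh7 kept its call in all of these fits. Myh10 also lost its call with the replicate block (adjusted p 0.0669) and with the block and GC correction (0.0659). With GC correction Myh14 was at -0.38 (adjusted p 0.0955). In the second table none of the 7 passed edgeR's test, 2 had an unadjusted p under 0.05, and DESeq2 called Myh14. Myh7 stood there at 243, 35.4 and 251 CPM in Zeb2 WT IR and at 43, 70.3 and 81.8 CPM in the Zeb2 cTg-labelled libraries (log2 -1.44, SE 0.57, adjusted p 0.169). Zeb2 WT IR replicate 2, which had the highest Mylk4, had the lowest Myh7.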

How the data were processed

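RNA-seq of 12 mouse heart libraries was deposited as 2 tables of raw counts per Ensembl gene. Per the submitters' processing notes, the authors aligned reads to mm10 with STAR 2.4.2a and counted them with HTSeq 0.6.1, and the strand setting is not given in the sources used here. Reads were single-end and 75 bases long. The members and gene lists were chosen with earlier results of these data known. Symbols, positions and lengths came from a GENCODE annotation of the same build, which covered 36429 identifiers.

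Each table was filtered (filterByExpr, minimum count 10, minimum total 15), scaled by TMM and fitted over all genes with edgeR 4.0.16 in R 4.3.3 (glmQLFTest, Benjamini-Hochberg, threshold 0.05). CPM is counts per 1000000 of the TMM-scaled library, SE the log2 fold change over the square root of F. One CPM stood for 17.18 to 37.8 counts. Ratios used 0.5 added to each count and exact permutation tests (scipy 1.17.1). Alternatives were other size factors, DESeq2 1.42.0, no filter, no mitochondrial genes, a replicate block, GC correction (loess span 0.5) and leaving out each library. The exon length, Myl2 to Myl3 and Mylk3 to Mylk4 were added after seeing the data. Text names all 10 members, listed pathway and heavy chain genes called in a table, counts of marker lists, and the 5 genes most like each of Myl1, Myl2, Myl9 and Mylk3, of which 1 is not reported here (Myl7 was below the filter). Single marker genes, Mylk and Mylk4 were named after their values were seen. On simulated data the fit recovered 80% and 64% of genes changed by 1 on the log2 scale in the first and second table (13640 and 12794 genes), and 10% and 3.75% of its calls were false. No pair of libraries agreed within sampling noise.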

Additional observations from a re-analysis of the deposited data

How the results depend on the processing

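In the first table the number of light chain genes called stayed at 3 in 8 settings other than leaving out a library and ran from 0 to 5 without 1 library. Calls over all genes ran from 421 to 4980 without 1 library. In the second table the light chain count was 6 without a filter on low counts, Myl7 with its counts in 1 library included, and 5 with DESeq2. A replicate block gave 5, as did the replicate block with GC correction, and it ran from 1 to 4 without 1 library. Calls over all genes were 893 with size factors from cardiomyocyte markers, 1553 without a filter, 1027 with DESeq2, 1813 with the replicate block, 807 with GC correction, 723 with the block and GC correction, and 98 to 2419 without 1 library. Same-numbered libraries deviated together in some pairs but not in all (correlations of -0.024, 0.00503 and 0.0233 in the first table and 0.133, 0.259 and -0.0504 in the second). Whether they share more than a number was not tested, and 1 correlation per pair cannot settle it. Scaling to cardiomyocyte markers shifted the median of all genes to 0.26 and -0.16 and moved the split of higher and lower calls from 1519 and 1340 to 2502 and 285 and from 278 and 196 to 147 and 746. Signs turned for genes that did not pass the test. In the first table Myl2 was at 0.18 with cardiomyocyte scaling and 0.019 without WT IR replicate 3 (range -0.15 to 0.019 without 1 library), and Myl12a at -0.012 without WT sham replicate 3 (range -0.012 to 0.077). In the second, Myl3 was at -0.058 with cardiomyocyte scaling, -0.0018 with GC correction, -0.02 with block and GC correction and -0.035 without Zeb2 cTg IR replicate 1 (range -0.035 to 0.29). Myl12b was at -0.098, -0.1 and -0.14 in the first 3 of these settings, -0.034 without Zeb2 WT IR replicate 1 and -0.29 without Zeb2 cTg IR replicate 3 (range -0.29 to 0.26). The cause of these shifts was not tested. Depth limits Myl7, with 0 to 3 counts in all libraries but 1, and Myl4, with 11 to 67.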

Other observations

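The genes whose levels ran most like those of a light chain gene were found among 12003 genes tested in both tables, by the mean of 2 Pearson correlations of log2 CPM, 1 per table over its 6 libraries. Libraries of a table share their normalization and their groups, so these values are a description of few points. For Mylk3 the 5 closest genes were Fam161b (0.983), Pak6 (0.974), Dand5 (0.97), Cacna1h (0.968) and Oaz2 (0.959). Cacna1h encodes a T-type calcium channel and Pak6 a kinase.

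For Myl2 they were Bcar3 (0.948), Pde3a (0.94), Lrrc1 (0.938), Adra1a (0.938) and Ppm1l (0.929), among which Pde3a encodes a cyclic nucleotide phosphodiesterase and Adra1a an adrenergic receptor, both known in cardiomyocytes. For Myl9 those reported here were Npy4r (0.918), Ston2 (0.916), Retreg2 (0.915) and Cnot8 (0.912). For Myl1 they were Rnf26 (0.916), Wdr20 (0.874), Tmem106a (0.86), Cdc26 (0.847) and Foxred2 (0.843).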
